A study of Mus musculus with 10 samples.

Results

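The comparison described here is that of accessible chromatin in reactivated and in quiescent neural stem and progenitor cells (NSPCs), by site and by gene. It used 4 of the 10 libraries of the study, 2 reactivated and 2 quiescent ATAC-seq libraries, on chromosomes 1 to 19. In ATAC-seq, the transposase Tn5 inserts sequencing adapters into open DNA, and a peak is a stretch where insertions exceed the background of the library. Overlapping or touching peaks of all 4 lists were joined into 104281 sites, and each site was given to the protein-coding gene with the nearest transcription start site (TSS). A site with a peak in both reactivated libraries and in neither quiescent library is called reactivated-only, and the opposite is called quiescent-only. These names describe peak calls and not the absence of reads. By this rule, 24976 sites were reactivated-only and 2001 were quiescent-only, and 30045 had a peak in all 4 lists.

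Primary NSPCs came from brains of C57BL/6 mice at postnatal day 5, and the labels name no allele or transgene. They grew as a mixture of stem and progenitor cells, with FGF2 and EGF at 20 ng/ml each in the medium. For quiescence, EGF was left out and 25 ng/ml BMP4 was added beside FGF2 for 4 days according to the labels, whereas the methods of the study give a shorter time before ATAC-seq. Reactivated NSPCs were exposed to BMP4 for the same 4 days and were returned to growth medium for another 9 to 12 days. The comparison therefore holds the return of growth medium, the removal of BMP4, added time in culture and renewed division together. The methods call the 2 libraries of a state biologically independent. Whether they came from separate mice is not given. The activated state is the growing culture that was never given BMP4, and its 2 ATAC-seq libraries serve below as a readout that did not enter the rule.

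BMP ligands act through receptor kinases that phosphorylate SMAD proteins, which enter the nucleus and induce the Id genes, inhibitors of basic helix-loop-helix (bHLH) factors. In neural stem cells, BMP signaling is known to hold cells out of the cycle and to favour an astrocytic state. EGF and FGF act through receptor tyrosine kinases and ERK, and growing NSPCs express SOX factors such as Sox2 and Sox11.

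The sequences below are taken around the summit of the strongest peak at sites that carry the main patterns. They were read 5′ to 3′ from the plus strand of GRCm38 (mm10). The first set holds strong reactivated-only sites with the E-box CAGCTG, a motif of bHLH factors, in capitals. They are shown because, of the motifs searched, this one differed most in share between the classes.

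Rabgap1l, intron, chr1:160531545-160531645: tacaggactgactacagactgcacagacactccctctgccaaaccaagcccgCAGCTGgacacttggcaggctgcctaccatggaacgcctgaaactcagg
Cadm2, intron, chr16:67598975-67599075: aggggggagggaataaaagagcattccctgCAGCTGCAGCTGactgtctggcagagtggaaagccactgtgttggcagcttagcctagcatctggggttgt
Cwc22, intergenic, chr2:78189702-78189802: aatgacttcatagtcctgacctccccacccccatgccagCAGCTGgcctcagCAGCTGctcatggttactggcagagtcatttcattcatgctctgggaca
Opalin, promoter, chr19:41077082-41077182: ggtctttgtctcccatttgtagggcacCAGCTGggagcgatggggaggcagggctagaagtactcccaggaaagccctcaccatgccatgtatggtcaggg
Sox11, intergenic, chr12:27575705-27575805: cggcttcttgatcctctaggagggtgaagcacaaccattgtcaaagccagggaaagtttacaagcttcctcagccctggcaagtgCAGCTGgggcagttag
Smad1, intergenic, chr8:79457921-79458021: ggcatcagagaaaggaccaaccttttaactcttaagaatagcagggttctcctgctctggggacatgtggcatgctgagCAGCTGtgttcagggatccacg

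The second set holds quiescent-only sites with the SMAD motif CAGACA in capitals, which reads TGTCTG where it lies on the minus strand. The Nfia site was quiescent-only in lists of equal length and had weaker peaks in both reactivated lists as deposited.

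Trim32, intron, chr4:65426657-65426757: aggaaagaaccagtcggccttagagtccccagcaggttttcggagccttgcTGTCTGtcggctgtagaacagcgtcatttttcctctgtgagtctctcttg
Nrg3, intron, chr14:38824946-38825046: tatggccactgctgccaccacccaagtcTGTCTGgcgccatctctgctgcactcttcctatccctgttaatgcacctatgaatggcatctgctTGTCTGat
Cxcr4, intergenic, chr1:128613261-128613361: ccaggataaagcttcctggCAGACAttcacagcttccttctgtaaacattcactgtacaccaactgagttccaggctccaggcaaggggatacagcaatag
Foxi2, intergenic, chr7:135431004-135431104: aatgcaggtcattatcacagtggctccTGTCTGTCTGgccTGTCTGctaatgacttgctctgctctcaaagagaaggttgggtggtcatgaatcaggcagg
Nfia, intron, chr4:98091621-98091721: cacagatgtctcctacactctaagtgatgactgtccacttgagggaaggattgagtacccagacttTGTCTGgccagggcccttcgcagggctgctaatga

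The third set holds sites made of a tandem repeat, in capitals, where reads are hard to place. They stood among the strongest of both classes and were kept apart from the rest.

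Bbip1, quiescent-only, intron, chr19:53938855-53938955: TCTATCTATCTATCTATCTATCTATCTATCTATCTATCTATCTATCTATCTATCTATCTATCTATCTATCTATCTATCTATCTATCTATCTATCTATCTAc
Crebzf, reactivated-only, promoter, chr7:90441931-90442031: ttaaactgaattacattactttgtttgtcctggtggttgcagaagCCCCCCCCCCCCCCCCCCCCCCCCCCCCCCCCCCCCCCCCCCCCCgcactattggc

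Each reactivated list held nearly as many peaks as both quiescent lists together. On chromosomes 1 to 19 there were 53586 and 59108 peaks in quiescent replicates 1 and 2, and 103186 and 103783 in reactivated replicates 1 and 2. Depth was read from the background pileup, the number of reads expected at a position, solved for each library from its enrichments and p-values. It was 6.61 and 12.09 in quiescent and 6.50 and 6.52 in reactivated NSPCs, and the weakest calls had pileups of 17, 25, 16 and 16 in the same order. The longer lists were thus not those of the deepest library. A site that misses these pileups was not detectable as a peak. The authors had downsampled the reads of the reactivated libraries and of no others, so that this step and the state cannot be told apart, and whether the states were sequenced together is not given in the sources used here. In such bulk libraries, a site open in more cells and a site more open in each cell cannot be told apart either.

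Promoters of neural stem cell markers were open in both states, with a peak within 1 kb of the TSS at 14 and 15 of 15 markers in quiescent and 15 and 15 in reactivated NSPCs. Quiescent replicate 1 lacked a peak at Prom1. Of 12 microglial markers, 1 and 1 had a promoter peak in quiescent and 2 and 2 in reactivated NSPCs, and Aif1, Csf1r, Itgam, Ptprc and Spi1 had none in any library. Of 10 endothelial markers it was 2 and 3 against 3 and 3, with none at Cdh5, Cldn5, Pecam1, Tek and Tie1. Of 12 mural cell and fibroblast markers, 3 and 5 had a promoter peak in quiescent and 10 and 9 in reactivated NSPCs. For mature neuron markers it was 6 and 7 against 10 and 10 of 11. For lists of equal length, as defined next, the counts for mural cells and fibroblasts were 3 and 5 against 5 and 5, and those for neurons 6 and 7 against 6 and 8. Over all 20698 protein-coding genes, 57.6% and 58.9% had a promoter peak in quiescent and 66.9% and 66.6% in reactivated NSPCs as deposited, and 57.6% and 58.1% against 60.9% and 60.8% in lists of equal length. The part of such cells in the sites below was not tested.

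Of all 104281 merged sites, the share called reactivated-only was 24.0% and that called quiescent-only 1.92%. Reactivated-only sites were assigned to 9333 of 20698 protein-coding genes (45.1%) and quiescent-only sites to 1605 genes (7.75%). Since the difference in list length enters these counts, each list was also limited to its 53586 peaks of smallest p, the length of the shortest. Of the 65390 sites that resulted, 6544 were reactivated-only (10%), near 4141 genes (20.0%), and 5504 were quiescent-only (8.42%), near 3565 genes (17.2%). The excess of reactivated-only over quiescent-only sites thus shrank from more than 10 times to near parity.

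**Figure D1:**
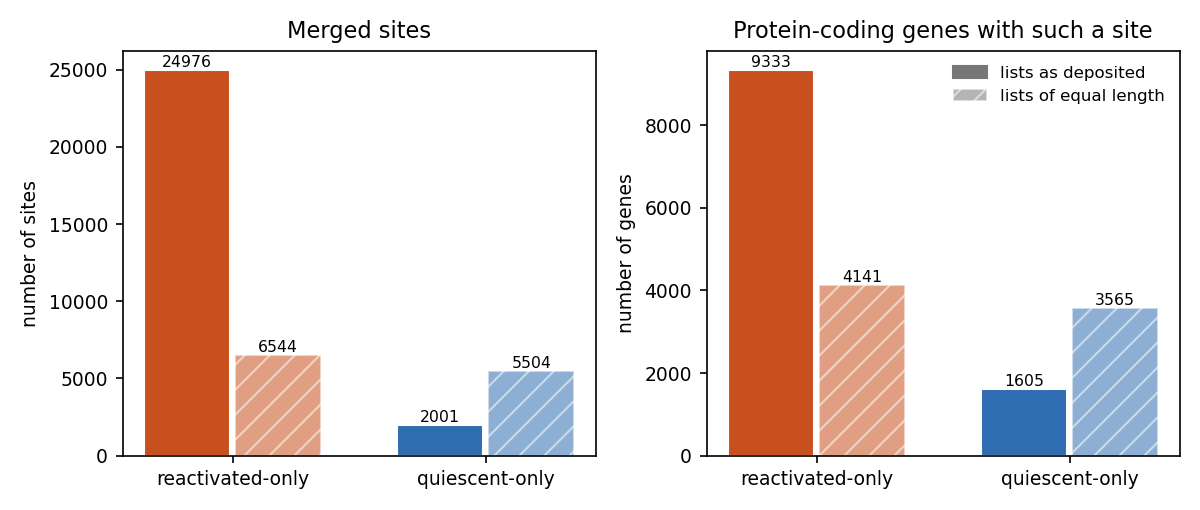
Numbers of merged sites (left) and of protein-coding genes with such a site (right) that were reactivated-only or quiescent-only, with lists as deposited (solid bars) and lists of equal length (hatched bars). Reactivated-only sites fell from 24976 to 6544 and quiescent-only sites rose from 2001 to 5504 when all lists held the same number of peaks.

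Both ways of counting ask different things. After the cut, the weakest peak kept had a −log10 p of 3.49 and 4.99 in the quiescent lists and of 18.3 and 18.1 in the reactivated lists. Of the 5504 quiescent-only sites in lists of equal length, 3687 (67.0%) had a reactivated peak below the cut, and 1811 (32.9%) were quiescent-only as deposited too. Of the 6544 reactivated-only sites, 319 (4.87%) had a quiescent peak below the cut, and 6151 (94.0%) were reactivated-only as deposited too. A quiescent-only site in lists of equal length therefore mostly ranked higher in quiescent NSPCs without lacking a reactivated peak.

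Genes whose open sites all belonged to one state were few. Open sites near 1048 genes (5.06%) were found in reactivated NSPCs without any quiescent peak, and near 44 genes (0.213%) the other way round. These were 329 (1.59%) and 310 genes (1.5%) in lists of equal length. Both kinds of site were found at 1264 genes (6.11%) as deposited and at 1530 (7.39%) with lists of equal length.

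Sites of one state lay away from promoters more often than sites open throughout. A promoter site, which reaches within 1 kb of a protein-coding TSS, was found for 14.1% of reactivated-only sites (95% interval 13.7 to 14.6), 2.30% of quiescent-only sites (1.69 to 3.05) and 39.0% of sites with a peak in all 4 lists (38.5 to 39.6). All intervals given for shares are Clopper-Pearson (exact binomial) and cover counting error only, since sites are not replicates. With lists of equal length the shares were 14.5%, 5.18% and 45.6%. More than 50 kb from any TSS lay 35.3% of reactivated-only sites (34.7 to 35.9) and 47.8% of quiescent-only sites (45.57 to 49.99), against 32.5% of every site. For the latter class, the nearest gene is a label of position and may not be the gene that the site acts on.

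H3K4me3, a histone mark of active promoters, was mapped by the study in quiescent and activated NSPCs in 1 library each. Both had an H3K4me3 peak at 14.2% of reactivated-only sites (13.8 to 14.6), 1.20% of quiescent-only sites (0.770 to 1.78) and 44.5% of sites open in all 4 lists (44.0 to 45.1). Among promoters alone the shares were 66.5% of 3527 reactivated-only promoters, 23.9% of 46 quiescent-only promoters and 93.7% of 11726 promoters open throughout. In quiescent NSPCs taken alone, 69.9% of the 3527 reactivated-only promoter sites carried the mark (68.4 to 71.5), fewer than the 83.1% of all promoter sites (82.6 to 83.6).

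The activated libraries, which the rule did not use, were compared with both classes. Their lists held 56961 and 46071 peaks on chromosomes 1 to 19, far fewer than the reactivated lists. The cut to 53586 shortened only the first, so that activated replicate 2 stayed shorter than the other lists. The shares with and without an activated peak depend on these lengths as well. A peak in both activated lists was found at 17.3% of reactivated-only sites (16.8 to 17.7), 4.798% of quiescent-only sites (3.90 to 5.83) and 75.6% of sites with a peak in all 4 lists (75.1 to 76.0), beside 29.9% over every site. With lists of equal length, the shares were 43.3% (42.1 to 44.5), 12.1% (11.3 to 13.0) and 85.5% (85.1 to 86.0), with 45.7% over every site. In single activated libraries, 63.1% and 50.4% of reactivated-only sites and 21.8% and 17.5% of quiescent-only sites had a peak. As deposited, 15308 reactivated-only sites (61.3%) had no peak in either activated list, above the 55.9% of every site. With lists of equal length this was 1954 of 6544 (29.9%), below the 37.96% of every site, so that the side of the background turned with the length of the lists.

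Peaks of both classes were weaker than those open throughout. The fold enrichment of a peak is its pileup divided by the background of its own library. At reactivated-only sites its median was 4.40 and 4.39 in the reactivated libraries, and at quiescent-only sites 3.42 and 2.98 in the quiescent libraries. At sites with a peak in all 4 lists it was 5.26 and 4.81 in quiescent and 8.97 and 9.31 in reactivated NSPCs. For lists of equal length the medians were 7.03 and 6.78 at reactivated-only and 3.68 and 3.21 at quiescent-only sites.

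The strongest reactivated-only sites lay far from a TSS. Ranked by the mean percentile of fold enrichment in both reactivated lists, the first was in an intron of Rabgap1l, a regulator of Rab GTPases, 89.7 kb upstream of the nearest TSS. Its fold enrichment was 21.9 and 20.3, and neither quiescent library had a peak. At Slit2, which encodes a secreted axon guidance ligand, an intronic site on chromosome 5 (48081308 to 48081861) had values of 20.0 and 22.0. At Cadm2, a synaptic adhesion molecule, they were 19.3 and 24.2, and the summit held a pair of adjoining E-boxes. Near Eno1b, an enolase gene, they were 24.4 and 19.9.

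The following sites were of like strength, with 22.2 and 17.6 near Zcchc7, an RNA-binding factor of the TRAMP complex, and 18.4 and 18.4 near Tox3, an HMG-box factor. Values of 17.6 and 18.2 were found in an intron of Aig1, and of 18.2 and 17.5 near Cwc22, a splicing factor. Near Cpm, a carboxypeptidase, they were 17.9 and 17.3. All of these 9 sites had a peak in both activated lists. The 10th, in the promoter of the bZIP factor Crebzf, with 20.5 and 20.1, was a run of 45 C bases and had a peak in activated replicate 2 alone. Of the 10 sites, 7 held an E-box within 200 bases of the summit, as listed for this motif in the next paragraphs, against 21.6% of every site.

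Of the strongest quiescent-only sites, 8 of 10 were tandem repeats. The first, in an intron of Bbip1, a subunit of the ciliary BBSome, had a fold enrichment of 18.9 and 20.7 in the quiescent libraries and lay in a repeat of 127 bases. The others lay near 4930524B15Rik, Got1, Pthlh, Pcca, Trim30c and Igsf11 and at the promoter of Bod1, in repeats of 68 to 139 bases. All 8 had a peak in both activated lists and in neither reactivated list. The reads at such sites can come from several places, so these sites were set aside.

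Without repeats, the strongest quiescent-only sites were less enriched than their reactivated counterparts, and nearly all lacked a peak in activated NSPCs. A site called plain below is one whose summit sequence of 31 bases occurs once in the genome, that lies in no tandem run of 30 bases or more, and that matches no mitochondrial DNA. Plain sites made up 96.6% of reactivated-only and 86.2% of quiescent-only sites. The strongest plain quiescent-only site was given to Trim32, a ubiquitin ligase, from 178 kb upstream, within an intron of Astn2, with a fold enrichment of 10.9 and 10.1. In an intron of Nrg3, which encodes a ligand of ErbB4, the values were 10.4 and 10.2.

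They were 12.2 and 7.55 at 143 kb upstream of Dock10, a guanine nucleotide exchange factor, and 8.96 and 9.93 near Bbs10. Near Dhrs3, which reduces retinaldehyde, they were 9.16 and 9.46, and near Fam180a 9.33 and 7.85. Upstream of Cxcr4, the receptor for the chemokine Cxcl12, they were 8.10 and 8.90. Near Foxi2, Lmo4 and Tox, transcription factors or cofactors, they were 8.70 and 7.45, 8.29 and 7.11, and 9.07 and 6.50. Of these 10 sites, only the one near Dhrs3 had a peak in an activated list, and in 1 of them.

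**Figure D2:**
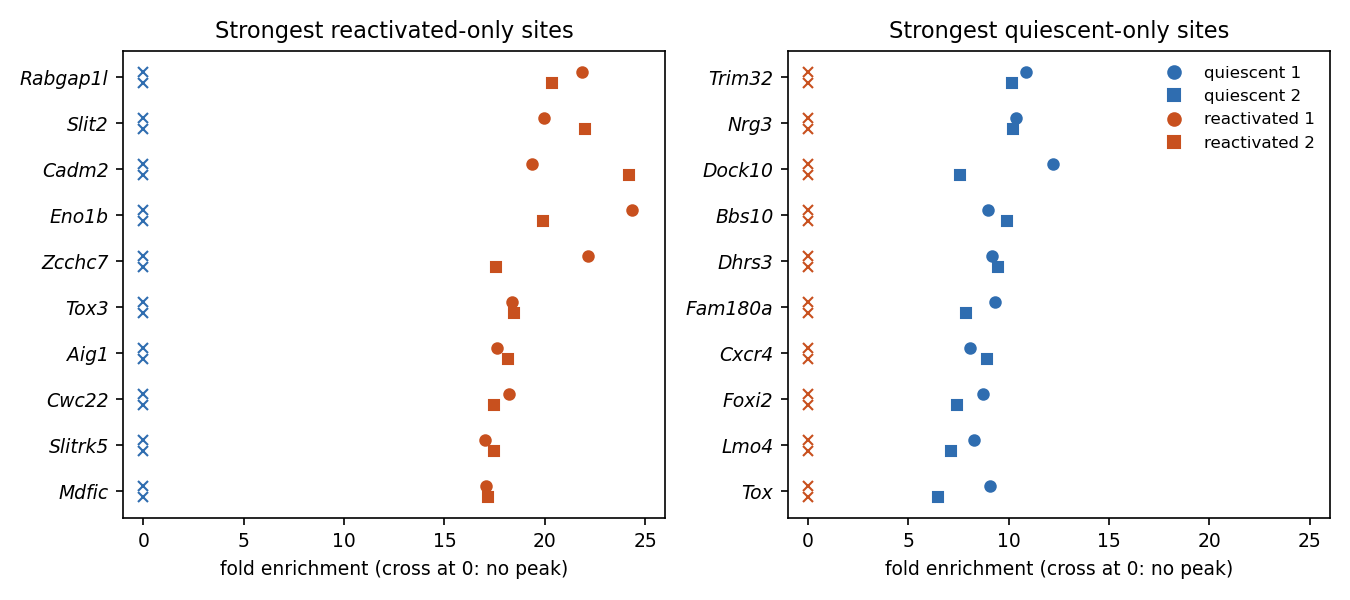
Fold enrichment (linear scale) in each library at the 10 strongest plain sites of each class, by nearest gene, with crosses at 0 for libraries without a peak. Reactivated-only sites (left) reached 17.0 to 24.4 in both reactivated libraries, and quiescent-only sites (right) 6.50 to 12.2 in both quiescent libraries.

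The strongest reactivated-only promoter site after that of Crebzf was at Lypd6, a membrane-bound modulator of Wnt signaling. Its fold enrichment was 16.2 and 17.2, and at a promoter site of Dock10 it was 16.5 and 15.8. Dock10 was thus a gene with a strong site of each class, a promoter site in reactivated and a distal site in quiescent NSPCs. At Opalin, a membrane protein of oligodendrocytes, the values were 14.3 and 15.8, and at Rbfox1, a splicing factor of neurons, 12.5 and 15.5.

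They ranged from 11.6 to 16.8 at Gpr15, a chemoattractant receptor, Raet1e, a ligand of natural killer cells, Frem1, of the extracellular matrix, Lrrc6, needed for ciliary dynein, and Scn7a, a sodium channel. All of these 9 promoters but Frem1 had a peak in both activated lists. Promoters that were quiescent-only were weak. Beside the repeat at Bod1, the highest was at Col9a1, a collagen, with 5.96 and 5.52, followed by Tusc3, of the oligosaccharyltransferase, with 7.10 and 4.36. At Pfkfb2, which sets the level of a regulator of glycolysis, it was 4.73 and 5.04, and at Pmp2, a fatty acid binding protein of myelin, 4.60 and 3.97. The promoters of Lyz2, Hsd17b4, Tmem150a, Spata1 and Clec2d lay between 3.67 and 5.92, and the summit sequence at Lyz2 occurred at 2 places.

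Genes with many reactivated-only sites had them spread over wide stretches, from 168 to 1932 kb among the 10 genes with the most. In lists of equal length, 12 of 45 sites given to Auts2, a chromatin regulator of neural development, were reactivated-only, spread over 1523 kb, and 2 were quiescent-only. It was 11 of 36 at Maf, a bZIP factor, and 10 each at Ntm, an adhesion molecule, Zfp608, a zinc finger gene, Dab1, of Reelin signaling, and Pde4b, a cAMP phosphodiesterase. Sox6, Frmd4a, Adgrl2 and Sept9 had 9 each. In total, 117 genes had 5 or more reactivated-only sites and 104 had 5 or more quiescent-only sites.

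Genes with many quiescent-only sites were mostly those beside repeated sequence. Gm21119 had 21, all with a summit sequence found at more than 1 place, and Gm31371 had 18, Snurf and Gm15319 had 16 each, Sfi1 15, Olfr161 and Gm10354 13 each, G530012D18Rik 12, Speer4d 11 and Gpm6a 10. Of the 10 at Gpm6a, a neuronal membrane glycoprotein, all were at more than 1 place too. Counting plain sites alone, Sfi1, of the centrosome, had 11, and Nrxn3, a presynaptic adhesion molecule, had 9. Nav2, a guidance protein of axons, Csmd1, a complement regulator, Olfr161 and Tenm4, a teneurin, had 8 each. Thrb, the beta receptor of thyroid hormone, Celf2, an RNA-binding protein, Mkln1 and Negr1, an adhesion molecule, had 7 each.

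Sequence at the summits differed between the classes. Motifs were searched on both strands in 200 bases around the summit of the strongest peak. They were the E-box CAGCTG, SOX AACAAT, AP-1 TGANTCA, the NFI palindrome TGGCNNNNNGCCA and its half-site TTGGC, TEAD CATTCC, ETS CCGGAA and SMAD CAGACA. The NFI half-site lies within some NFI palindromes. The SMAD motif was added after the data were seen. The E-box was found at 29.0% of reactivated-only sites (28.5 to 29.6), 11.3% of quiescent-only sites (9.99 to 12.8), 18.6% of sites open in all 4 lists (18.1 to 19) and 21.6% of every site. The first 3 shares were 36.9%, 13.8% and 18.9% in lists of equal length. Away from promoters they were 30.6%, 11.3% and 22.8% as deposited, in the same order.

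The SMAD motif was most frequent at quiescent-only sites. It was found at 19.8% of reactivated-only (19.3 to 20.3), 33.0% of quiescent-only (30.9 to 35.1), 17.9% of throughout open (17.5 to 18.4) and 20.2% of all merged sites. With lists of equal length, the quiescent-only share was 27.5%, against 19.2% for reactivated-only sites, and over plain sites as deposited it was 34.7% against 19.9%. Away from promoters, the share was 20.8% at reactivated-only, 32.8% at quiescent-only and 23.6% at throughout open sites. SOX matches lay at 10.2% of reactivated-only and 6.55% of quiescent-only sites, against 7.78% of every site. AP-1 matches lay at 8.52% and 6.197%, against 7.61%.

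The NFI half-site differed little over all sites of the classes, with 45.8% and 48.9% against 44.8% of every site. Over plain sites it was at 46.1% (45.5 to 46.8) and 52.8% (50.4 to 55.2) as deposited, and at 48.1% and 51.6% in lists of equal length. The palindrome was at 2.67% and 1.55% of all sites of the classes, against 2.17%. TEAD matches were at 12.5% and 12.9%, against 11.8%. ETS matches were less frequent in both classes than in sites open throughout, at 4.21% and 1.95% against 11.4%, and away from promoters at 3.54% and 1.94% against 4.28%. The median GC content was 52% at reactivated-only, 48% at quiescent-only and 56% at throughout open sites. A match is a string of letters in the reference and not a bound factor.

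**Figure D3:**
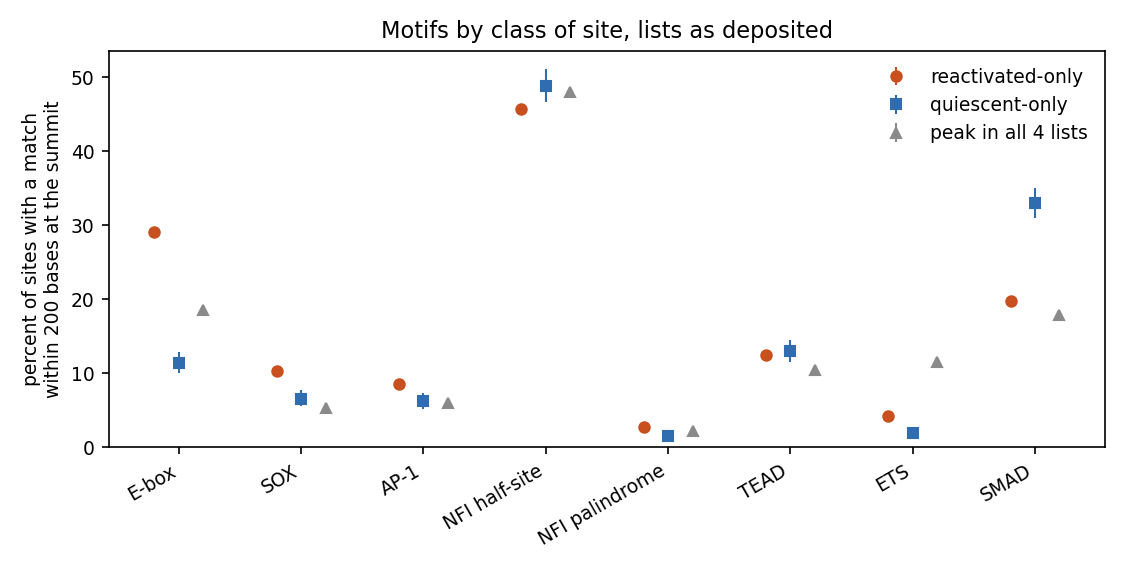
Percent of sites with a motif match within 200 bases at the summit, for reactivated-only (circles), quiescent-only (squares) and throughout open sites (triangles), with exact binomial 95% intervals. The E-box was highest at reactivated-only sites (29.0%) and lowest at quiescent-only sites (11.3%), and the SMAD motif was highest at quiescent-only sites (33.0%).

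Gene lists were read by the share of their sites in each class with lists of equal length, beside 10% reactivated-only and 8.42% quiescent-only over every gene. Neural stem cell markers had 17.7% of 181 sites reactivated-only and 4.97% quiescent-only. The neurogenic and interneuron lineage had 17.1% and 4.65% of 129 sites. As deposited, where the shares over every gene were 24.0% and 1.92%, these lists had 30.0% and 1.47%, and 32.5% and 0.439%. At Sox2, a factor of stem cell identity, 8 sites were reactivated-only and 1 was quiescent-only, and the strongest of the former, 185 kb from the TSS, had a fold enrichment of 11.7 and 8.63 but was not reactivated-only as deposited.

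At Sox9, a factor of neural stem and glial cells, the counts were 7 and 1, and at Sox11, a factor of neuroblasts, again 7 and 1. The strongest Sox11 site (chromosome 12, 27575530 to 27575993) had 13.1 and 13.4, held an E-box and a SOX match, and was open in both activated lists. At Hes1, the effector of Notch signaling, there were 4 reactivated-only and 2 quiescent-only sites. One of the latter, 118 kb from the TSS, had 4.34 and 4.90 and no peak in any reactivated or activated list. At Lrig1, an antagonist of ErbB receptors, there were 4 and 0, and at Dlx2, of interneuron precursors, 2 and 0, with 10.4 and 9.06 at the strongest.

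In lists of equal length, the BMP pathway and its direct targets had more sites than the background in both classes, with 15.1% of 212 sites reactivated-only and 12.7% quiescent-only. As deposited, the shares were 25.8% and 3.48% of 345, beside 24.0% and 1.92% over every gene. The reactivated-only share then lay near the background. Among receptors and signal carriers, Smad5, which BMP receptors phosphorylate, had 3 reactivated-only sites, the strongest with 15.1 and 15.9, and no quiescent-only site. As deposited, that site was not reactivated-only. Smad1, another such SMAD, had 3 and 1. The receptor gene Bmpr1b had 5 and 2.

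Among inhibitors, Nog, which binds BMPs outside the cell, had 0 reactivated-only and 3 quiescent-only sites, and Fst, another binding protein, 1 and 3. A quiescent-only site 129 kb from Fst had 5.92 and 6.88 and was closed in the reactivated lists as deposited as well. Among targets, Id4 had 5 and 0, Id2 2 and 3, Id1 1 and 0 and Id3 1 and 0. Atoh8, a bHLH gene, had 0 and 4, and Hey1, a target shared with Notch, 0 and 3. As deposited, Atoh8 had 4 reactivated-only and 2 quiescent-only sites, Hey1 2 and 1, Fst 2 and 1, Id2 13 and 2 and Nog 0 and 2. Of these genes, only Nog thus kept more quiescent-only sites in both settings. Of the 3 Id2 sites, the strongest had a summit sequence found at 7418 places.

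Receptors and feedback genes of EGF and FGF had 12.4% of 258 sites reactivated-only and 6.98% quiescent-only. Etv1, an ERK-responsive factor, had 5 and 1, Dusp6, a phosphatase of ERK, 2 and 1, and Fgfr3 2 and 0. Myc had 6 and 4, the strongest reactivated-only site, 434 kb from its TSS, with 12.4 and 12.6. Egfr had 0 and 3, all of them ranked higher in quiescent lists, and none was quiescent-only as deposited. As deposited, Egfr had 3 reactivated-only and 0 quiescent-only sites. CDK inhibitors had 15.4% and 2.56% of 39 sites, G1 cyclins, CDKs, E2F and Myc 11.6% and 8.90% of 146, DNA replication genes 3.85% and 8.97% of 78 and mitosis genes 5.45% and 10% of 110. As deposited, the reactivated-only shares of these lists were 22.4%, 24.5%, 20.8% and 18.8% in the same order, beside 24.0% over every gene.

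Lists of quiescent and glial genes did not move one way. Stem cell quiescence regulators had 11.8% and 7.58% of 211 sites, with 6 and 1 at Btg1, an inhibitor of proliferation, and 0 and 3 at Gadd45a, of the stress response. Astrocyte and radial glia genes had 10.8% and 10.8% of 203. Within the latter, Aqp4, the water channel of astrocytes, had 0 and 5, Slc1a2, a glutamate transporter, 0 and 4 and Gja1, connexin 43, 1 and 3, beside 7 and 1 at Sox9. As deposited, Aqp4 had 3 and 1, Slc1a2 5 and 1, Gja1 2 and 0 and Sox9 22 and 0. At Aqp4, Slc1a2 and Gja1, the class that held more sites thus turned with the length of the lists. The Notch pathway had 11.1% and 9.15% of 153, with 4 and 0 at the ligand Jag1. Oligodendrocyte lineage genes had 11.03% and 6.21% of 145, with 6 and 0 at Tcf7l2.

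NFI factors, of which NFIX holds neural stem cells quiescent, had 14.8% and 7.95% of 88, with 5 and 2 at Nfia and 7 and 3 at Nfib. AP-1 factors had 14.2% and 7.5% of 120, with 11 and 3 at Maf. The TEAD and YAP pathway had 10% and 7% of 100. For lists of other cell types, endothelial markers had 20.97% and 12.9% of 62 sites, 13 of these 21 sites at Cdh5, microglial markers 17.1% and 5.71% of 35, mural and fibroblast markers 11.4% and 4.55% of 44, and mature neuron markers 15.3% and 3.39% of 59. As deposited, the reactivated-only shares of these cell type lists were 26.9%, 21.4%, 34.9% and 36.3% in the same order, beside 24.0% over every gene.

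**Figure D4:**
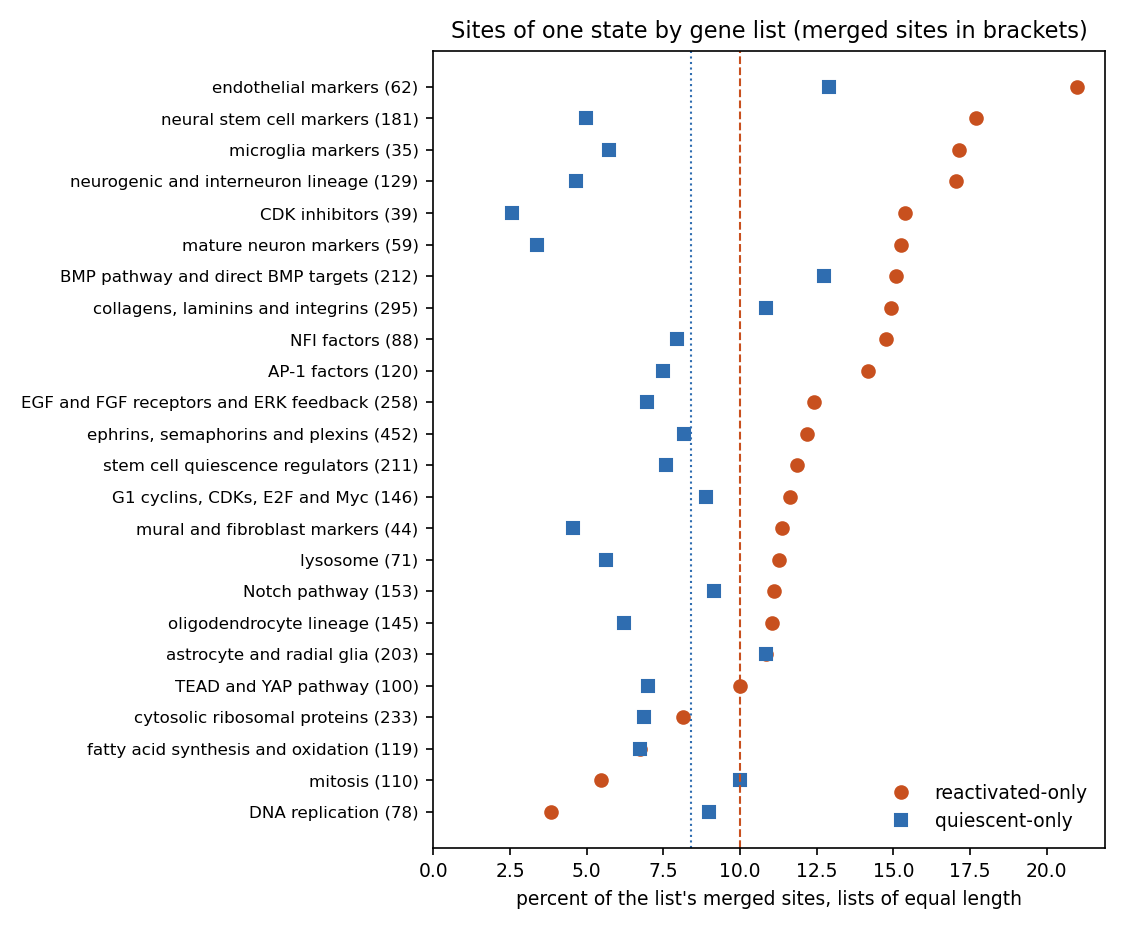
Percent of the merged sites of each gene list (number of sites in brackets, lists with 30 or more) that were reactivated-only (circles) or quiescent-only (squares), with peak lists of equal length. The dashed and dotted lines mark every gene (10% and 8.42%). Neural stem cell markers (17.7% and 4.97%) and the neurogenic lineage (17.1% and 4.65%) lay apart from both in opposite directions. Others did so too, among them CDK inhibitors (15.4% and 2.56%), mature neuron markers (15.3% and 3.39%) and microglial markers (17.1% and 5.71%). The highest reactivated-only share was that of endothelial markers (20.97%). As deposited, the reactivated-only shares of CDK inhibitors (22.4%) and microglial markers (21.4%) lay below the 24.0% over every gene, and that of mature neuron markers (36.3%) above it.

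Strength was tested at the 30045 sites with a peak in all 4 lists, where fold enrichment is given for every library. It was compared on the log2 scale after quantile normalization with limma, with Benjamini-Hochberg adjustment over all sites and a threshold of 0.05. In reactivated NSPCs, 3041 sites were higher (10.1%), near 2461 genes, and 2982 were lower (9.93%), near 2431 genes. In total, the values of 29.9% of sites lay higher in both reactivated than in both quiescent libraries, and those of 35.0% lay lower. The p-values measure the spread between these 2 libraries a state.

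The balance of directions came from the scaling. Without normalization the median log2 difference over all sites was 0.67 in favour of reactivated NSPCs, 18618 sites were higher and 279 lower (98.5% of calls higher), and with each library scaled to its median 2820 were higher and 6753 lower (29.5%), at a median difference of -0.19. The main comparison had 50.5% of calls higher and a median difference of -0.04. All 3041 sites called higher in reactivated NSPCs were higher in the deposited values too. Since those values were shifted towards reactivated NSPCs as a whole, this could hardly come out otherwise. Of the 2982 called lower, 2026 (67.9%) were lower in the deposited values and 926 did not overlap there.

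**Figure D5:**
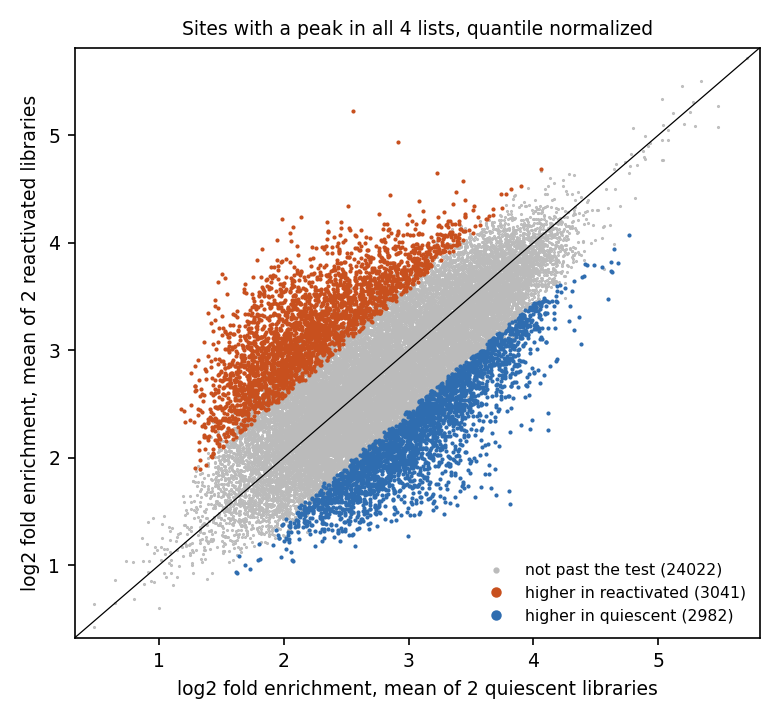
Mean log2 fold enrichment after quantile normalization in the 2 quiescent (x axis) and the 2 reactivated libraries (y axis) for 30045 sites with a peak in all 4 lists. Coloured points passed the test, 3041 above and 2982 below the line of equal values.

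Apart from sites in tandem runs near Ddhd1 and Tiam2 and one found at 32 places near Vmn1r64, the largest gains were at 5 distal sites and 2 promoters. Near Ctso, which encodes a cathepsin, the fold enrichment was 2.63 and 2.37 in quiescent and 16.0 and 16.0 in reactivated NSPCs, a log2 difference of 2.21 ± 0.16 (SE, n = 2 per state, limma adjusted p = 0.00673). At Spry2, an inhibitor of receptor tyrosine kinase signaling that ERK induces, a site 45.4 kb downstream went from 3.02 and 2.90 to 19.5 and 17.0, a log2 difference of 2.12 ± 0.18. Another Spry2 site, 266 kb away, went the other way, from 4.78 and 5.21 to 3.002 and 3.26, with a log2 difference of -1.27.

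At a promoter site of Phactr2, a regulator of actin and phosphatases, the values were 3.02 and 2.14 against 16.5 and 14.9. Near Meis1, a homeobox factor, they were 3.68 and 2.67 against 21.1 and 17.2, and near Mrps28, Ehbp1 and Gm973 the log2 differences were 2.097, 2.07 and 2.05. At all of these sites both activated lists had a peak.

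The largest losses were also distal and mostly closed in activated NSPCs. In an intron of Pid1, a modulator of insulin signaling, the fold enrichment was 12.2 and 11.2 in quiescent and 3.60 and 3.19 in reactivated NSPCs, a log2 difference of -2.24 ± 0.17 (SE, limma adjusted p = 0.00673). At the intronic site of Nfia printed above, it was 9.99 and 6.57 against 2.80 and 4.12, a log2 difference of -1.83 ± 0.22. Another intronic Nfia site rose from 4.21 and 3.44 to 15.0 and 16.9, a log2 difference of 1.40.

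Near Syk, a kinase of immune receptors, the values were 10.6 and 9.90 against 3.64 and 4.12. At Limch1, an activator of myosin, they were 6.57 and 8.79 against 3.07 and 3.19. Sites near Cdk5rap2, Olfr987, Trabd2b, Vmn2r-ps159, Dync1li1 and Stpg2 had log2 differences between -2.11 and -1.80. Each of these 10 sites was lower without normalization and with median scaling as well. Since they were picked as the largest losses of the same test, this could hardly come out otherwise. Of the 10 sites, 7 had no peak in either activated list.

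The called sites differed in the E-box and in the activated libraries in the order of the classes. E-boxes lay at 32.8% of sites stronger in reactivated and 11.2% of sites stronger in quiescent NSPCs, against 18.6% of all tested. Both activated lists had a peak at 87.9% and 63.3%, against 75.6%. Unlike these gains, reactivated-only sites as deposited had lain below the background, with 17.3% against 29.9% of every site. The SMAD motif did not separate the called sites, at 20.5% and 20.8%, against 17.9%. Promoters made up 25.0% and 31.3%, against 39.0% of all tested sites, in the reverse order of the classes (14.1% and 2.30%). The summit sequence was found at more than 1 place for 1.35% of the stronger sites in reactivated and 9.42% of those in quiescent NSPCs.

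By role, sites of growth factor receptors and their feedback genes moved both ways. The sites named from here on had limma adjusted p-values between 0.00673 and 0.038. Of 134 tested sites of the EGF and FGF list, 19 were higher and 21 lower in reactivated NSPCs, beside 10.1% higher and 9.93% lower over all sites tested. Gains were found near Fgfr3 (3.07 and 1.99 against 10.6 and 11, log2 difference 1.56 ± 0.24), Fgfr2 (2.50 and 2.29 against 11.2 and 8.95, 1.49 ± 0.19) and Egfr (3.94 and 5.197 against 20.6 and 16.3, 1.39 ± 0.25). Near Etv1 the log2 difference was 1.70 ± 0.31. Losses were at promoters of the feedback genes Spred1 (8.08 and 7.53 against 5.67 and 6.12, -1.13 ± 0.16) and Dusp6 (10.9 and 12.8 against 9.22 and 9.89, -1.002 ± 0.17), which were lower in the deposited values as well.

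In the BMP list, 8 of 99 sites were higher and 13 lower. These shares, 8.08% and 13.1%, lie near those over all sites. A promoter site of Smad6, an inhibitory SMAD that BMP induces, had 7.53 and 5.41 in quiescent and 4.11 and 4.59 in reactivated NSPCs, a log2 difference of -1.24 ± 0.18. At a promoter site of Smad7, another inhibitory SMAD, it was 5.95 and 6.91 against 4.72 and 5.63, a difference of -1.03 ± 0.18. At the promoter of Id3 it was 6.68 and 5.81 against 5.11 and 5.62 (-0.96 ± 0.16). For these 3 sites the groups did not overlap in the deposited values either. At a promoter site of Id1, with 6.71 and 5.73 against 5.40 and 6.96 (-0.80 ± 0.18), they overlapped. Where a promoter held several sites, the strongest peak in each library gave another picture. It had 7.53 and 5.41 against 6.56 and 7.87 at Smad6, 5.95 and 6.91 against 7.65 and 6.85 at Smad7, and 6.71 and 6.14 against 8.47 and 7.64 at Id1. By this value the groups overlapped at Smad6 and Smad7 and were higher in reactivated NSPCs at Id1, so that the losses are those of single sites. At Id3 the strongest peak was the one named.

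A site near Id4 rose from 4.47 and 3.90 to 15.6 and 12.3 (0.98 ± 0.21), and one in an intron of Smad9 from 3.16 and 2.14 to 8.005 and 10.1 (1.18 ± 0.22). A site near Btg1 fell from 6.77 and 6.98 to 3.69 and 4.52 (-1.40 ± 0.17), and the promoter of Ccnd2, cyclin D2, from 6.85 and 6.84 to 4.90 and 5.16 (-1.16 ± 0.16). Of 81 sites of neural stem cell markers, 10 were higher (12.3%) and 8 lower (9.88%), near the 10.1% and 9.93% over all sites tested. Of 48 sites of the neurogenic lineage it was 12 (25%) and 4 (8.33%). Near Sox9 a site rose from 4.08 and 4.20 to 18.9 and 17.2 (1.48 ± 0.18), near Hes1 from 2.76 and 2.67 to 10.1 and 10.7 (1.297 ± 0.17), and near Sox11 from 3.68 and 3.67 to 13.0 and 14.2 (1.17 ± 0.17).

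For astrocyte and radial glia genes it was 12 and 7 of 105 (11.4% and 6.67%), beside 10.1% and 9.93% over all sites tested. The site 10.5 kb upstream of Aqp4 passed the test as lower in reactivated NSPCs, with a log2 difference of -0.63 ± 0.17, while its deposited fold enrichment, 6.93 and 6.53 against 8.005 and 7.31, was higher there, so that its direction flips with the scaling. The Notch pathway had 10 and 13 of 77 (13.0% and 16.9%) and stem cell quiescence regulators 5 and 10 of 99 (5.05% and 10.1%). AP-1 factors had 5 and 8 of 55 (9.09% and 14.5%). Near the shares over all sites were NFI factors with 5 and 5 of 51 (9.80% each) and oligodendrocyte lineage genes with 5 and 6 of 59 (8.47% and 10.2%). G1 cyclins, CDKs, E2F and Myc had 7 and 10 of 73 (9.59% and 13.7%) and CDK inhibitors 1 and 3 of 20 (5% and 15%). Mitosis genes had 5 and 4 of 59 (8.47% and 6.78%) and DNA replication genes 1 and 7 of 49 (2.04% and 14.3%). All these list counts rest on quantile normalization, and a call can differ in direction from the deposited values. As deposited, the strongest promoter peaks of DNA replication genes were mostly higher in reactivated NSPCs, with 13.9 and 13.1 against 20.6 and 23.8 at Mcm10. At Pcna they overlapped, with 16.0 and 14.2 against 15.9 and 19.8. The TEAD and YAP pathway had 7 and 3 of 47 (14.9% and 6.38%). Jun, of AP-1, had a site that rose from 3.29 and 2.83 to 13.8 and 14.6 (1.61 ± 0.16) and a promoter that fell from 7.54 and 9.33 to 7.33 and 7.09 (-0.96 ± 0.18).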

How the data were processed

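ATAC-seq peaks of NSPCs were analysed from the lists the authors deposited. Per the labels, reads were trimmed with Trim Galore 0.4.0, aligned to mm10 with Bowtie2 2.2.5 and handled with Picard 1.88, SAMtools 1.3.1 and HOMER. The authors called peaks with MACS in each library at an FDR of 0.05 and downsampled the reactivated libraries. Each deposited peak has a fold enrichment (a ratio to local background), −log10 p, −log10 q and a summit offset, and read counts per site were not used here. Peak score columns were not used.

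Members and lists were chosen with earlier results of these data known. Genes came from GENCODE M21 (20698 protein-coding symbols) and sequence from GRCm38.p6. Sites and classes were computed with Python 3.11.15, pandas 2.3.3, pysam 0.24.0 and BLAST+ 2.17.0, and strength with limma 3.58.1 in R 4.3.3, with adjustment by Benjamini-Hochberg over all sites. Named sites were the 10 per class of highest mean percentile within their lists in the class under both settings, 1 per gene, the same for promoters, the 10 genes with the most sites, the 10 largest tested differences per direction, and members of 26 lists. Plain sites, motifs away from promoters and the SMAD motif were chosen after seeing the data. On simulated data, 100% of 200 sites changed by a log2 of 1.5 were called among 30045, and 0.0268% of unchanged sites. The simulated noise was independent and had the same spread at every site. Equally many sites were raised and lowered, without a shift between the states. The measured values do not have this setting, so these rates check the code and do not give the rate of false calls in these data.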

Additional observations from a re-analysis of the deposited data

How the results depend on the processing

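With lists of equal length, the counts were 6544 reactivated-only sites near 4141 genes and 5504 quiescent-only sites near 3565 genes, the genes open in one state alone 329 and 310, the shares open in both activated lists 43.3% and 12.1%, and the quiescent-only promoter share 5.18%. Ranking by fold enrichment instead gave 7696 and 5433 sites. A minimum −log10 q of 10 gave 732 quiescent-only sites near 660 genes, 1942 and 28 genes open in one state alone, a reactivated-only promoter share of 17.7% and activated share of 14.1%, and 1692 sites stronger and 1734 weaker in reactivated NSPCs. Promoters of 2 kb gave 16.9% and 4.95%, sites within 25 kb upstream to 10 kb downstream of a TSS 525 genes with a quiescent-only site, and plain sites an activated share of 1.28% for quiescent-only sites.

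Leaving out 1 library gave 29260 to 39367 reactivated-only sites (39367 and 39165 without reactivated replicate 1 or 2), a promoter share of 14.5% to 15.3% and an activated share of 11.8% to 21.1%. It gave 2551 to 7068 quiescent-only sites (7068 and 5085 without quiescent replicate 1 or 2, 3104 without reactivated replicate 2), near 1958 to 4322 genes, with a promoter share of 2.90% to 3.93% and an activated share of 2.07% to 6.35%. Genes open in one state alone were 1319 to 1730 for reactivated and 78 to 230 for quiescent NSPCs.

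In the limma test, no normalization gave 18618 sites higher and 279 lower in reactivated NSPCs, and median scaling 6753 lower. Leaving out 1 library gave 0 to 2448 higher and 0 to 1648 lower. Without reactivated replicate 1 or 2, limma called 0 sites in either direction, with 6908 and 7505 at an unadjusted p under 0.05 (11139 with all libraries), the lone library being assumed to vary like the others. Without quiescent replicate 1 the counts were 1975 and 1301. A replicate block gave 3416 higher and 3155 lower, and the deviations of same-numbered libraries had a correlation of 0.0274, and what a shared number marks is not given in the sources used here.

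Of the sites named, the one upstream of Aqp4 changed direction with the scaling, and the balance of higher and lower calls turned with it too, from 50.5% higher to 98.5% without normalization and 29.5% with median scaling. Of values for named class sites, 420 kept their class and 12 did not. Part of the 420 could not fail. The sites had been picked as members of their class in lists of equal length too (48 values). Leaving out a library only loosens the rule (48 values for each library). The 12 came from plain sites (11) and a minimum −log10 q of 10 (1). The 20 sites of largest tested difference stayed past the threshold with median scaling, no normalization and a replicate block. Fits without 1 library, which leave 1 sample in a state, are not counted in this. Since these 20 had been picked as the largest differences of the same test, their staying past the threshold could hardly come out otherwise. Fewer of these 20 could be tested with lists of equal length (9), with a minimum −log10 q of 10 (2) and as plain sites (17), since the others left the tested set. Where a cause is not plain from the setting, the cause was not tested. Depth limits what is called a peak, and read counts at sites without a peak were not analysed here.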

Other observations

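Of lists outside the pathways above, collagens, laminins and integrins had 14.9% of 295 sites reactivated-only and 10.8% quiescent-only in lists of equal length, beside 10% and 8.42% over every gene. At shared sites, 17 of their 113 were higher (15.0%) and 2 lower (1.77%) in reactivated NSPCs by limma with quantile normalization. Over all sites tested, 10.1% were higher and 9.93% lower. Ephrins, semaphorins and plexins had 12.2% and 8.19% of 452 sites, with 27 higher and 24 lower of 183. Lysosomal genes had 11.3% and 5.63% of 71 sites, with 2 higher and 1 lower of 40, and fatty acid genes 6.72% and 6.72% of 119, with 2 and 7 of 70. Cytosolic ribosomal proteins had 8.15% and 6.87% of 233, with 6 and 10 of 134.

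Hox clusters had 8 sites, of which 1 was reactivated-only and 0 quiescent-only, and their only shared site was higher in reactivated NSPCs. Clustered protocadherins had 4.35% of 23 sites in each class, with 0 higher and 2 lower of 12 shared sites. Among markers of other cell types, 5 of 14 shared sites of mural and fibroblast markers, 3 of 10 of microglial, 2 of 16 of endothelial and 2 of 24 of mature neuron markers were higher and 0 lower in reactivated NSPCs, beside 10.1% higher and 9.93% lower over all sites tested. The endothelial and neuron shares, 12.5% and 8.33%, lie near the former.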
